A study of Gasterosteus aculeatus with 79 samples.

Results

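The diencephalon of male threespine sticklebacks (Gasterosteus aculeatus) that were tending eggs was compared with that of control males. The members were chosen by the labels alone: 5 diencephalon libraries of males whose eggs had been fertilized 4 days earlier, and 5 diencephalon libraries of control males, all sampled at 9 a.m. They make up 10 of the 79 libraries of the series and 10 of its 39 diencephalon libraries. Each library came from 1 male. The egg-tending males were males 60, 71, 77, 87 and 88, and the control males were males 7, 39, 41, 69 and 74. The controls were reproductively mature and had no nest, so the comparison spans everything between having no nest and tending eggs on day 4, including nest building and mating. All were wild-caught adults of 1 freshwater population and carried no transgene or drug treatment. The rest of the diencephalon series held males with an empty nest, males at early, mid and late hatching, and control males of 1 p.m. and 5 p.m.

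In sticklebacks the father cares for the brood alone. He fans the eggs in the nest, removes dead ones and drives off intruders. The diencephalon holds the hypothalamus and preoptic area, where neuropeptide cells that regulate reproduction, feeding, stress and parental behaviour lie. The pituitary hangs below it and the light-sensitive pineal organ sits above it, so RNA of either can come with the dissected tissue. The libraries were made from whole tissue, in which fewer cells of a type and less RNA per cell cannot be told apart.

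Gene counts of the 10 libraries totalled between 16890543 and 22782480. Of 22456 genes, 18609 reached 0.5 CPM (counts scaled to a common library size) in at least 5 diencephalon libraries and were tested. Symbols were known for 681 genes, of which 652 were tested, and the study's tables that gave them list genes in an order set by the study's own results, so the genes with a symbol are not a random sample. None of the markers listed for diencephalon, telencephalon, neurons or erythrocytes could be matched to a gene, and the tissue label was therefore not checked against its defining markers. The titles of all 5 control libraries carry a letter in place of a single lane number, those of 0 of the 5 egg libraries do, and the groups share no first index, so lane, index and group cannot be told apart. Aligned reads falling outside annotated genes made up 49.7% ± 2.5 (SD, n = 5) with eggs and 47.7% ± 2.09 (SD, n = 5) in controls (two-sided exact permutation test, p = 0.222, 0.622 after adjustment over 14 library measures), and the 10 most counted genes held 6.02% ± 0.243 and 5.41% ± 0.373 of gene counts (SD, n = 5 each, exact permutation p = 0.0159, 0.111 after adjustment).

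Few genes passed the adjusted thresholds, while many more differed by the unadjusted test. By edgeR's quasi-likelihood test, with Benjamini-Hochberg adjustment over all genes, 4 genes were higher and 2 lower with eggs at an adjusted p under 0.01 (0.0322% of the genes tested, 0.0215% higher and 0.0107% lower). At 0.05 there were 30 higher and 7 lower (0.199% of genes, 0.161% higher and 0.0376% lower). An unadjusted p under 0.05 was reached by 3222 genes (17.3%), 1567 of them higher (8.42%) and 1655 lower (8.89%). The 37 genes that passed 0.05 had a median of 40.4 CPM, and 25 of them differed by less than 0.6 on the log2 scale. Of all genes tested, 524 did not overlap between egg-tending and control males (2.82%, 1.59% higher and 1.23% lower). Of the 37, these were 26 of the 30 higher genes and 4 of the 7 lower genes. The 37 were picked by a test on these same males, so their high share without overlap follows from that choice. The genes with a symbol among the 37 were adcyap1a, bdnf, ndufa7 and abhd5b, and all 4 were higher with eggs.

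**Figure D1:**
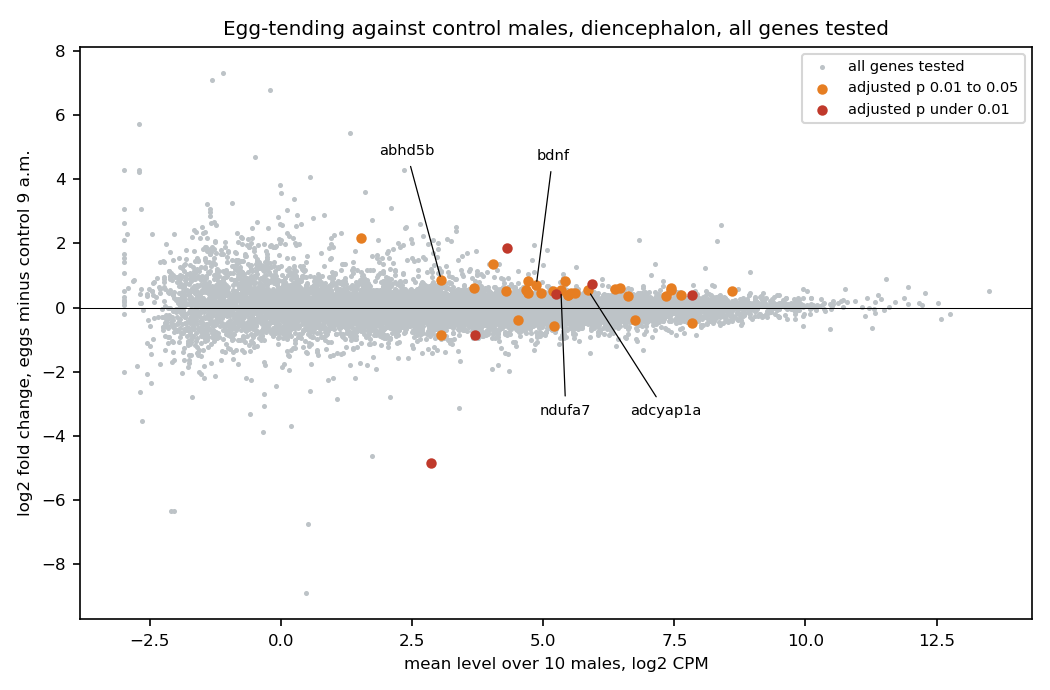
Log2 fold change (eggs minus control 9 a.m., vertical axis) of each of the 18609 genes tested against its mean level over the 10 males (horizontal axis, log2 CPM, the lowest values drawn at the left edge). Red points passed an adjusted p of 0.01 and orange points 0.05. Most of the 37 coloured points lie above 0, and 25 of them within 0.6 of it.

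adcyap1a, which encodes the neuropeptide PACAP, a stimulator of adenylate cyclase made in the hypothalamus and acting on the pituitary, was the only releasing peptide with a symbol. Its level was 65.7, 75.7, 80.0, 50.0 and 71.2 CPM in egg-tending males 60, 71, 77, 87 and 88. In control males 7, 39, 41, 69 and 74 it was 47.8, 47.7, 51.5, 44.8 and 45.1 CPM. Of the egg-tending males, 4 lay above every control male and male 87 lay within their range, while the controls were close together. The means were 68.5 ± 11.6 (SD, n = 5) and 47.4 ± 2.7 (SD, n = 5) CPM, a 1.45-fold difference (log2 fold change 0.53, SE 0.11, quasi-likelihood test, adjusted p = 0.0194), so adcyap1a rose at the 0.05 threshold and not at 0.01. Without egg-tending male 77 the adjusted p was 0.0716, and without control males 69 or 74 it was 0.0641 or 0.0764. Without male 87 it was 0.00343.

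bdnf, which encodes brain-derived neurotrophic factor, a secreted growth factor for neurons and synapses, was at 32.5, 42.0, 36.3, 27.5 and 41.9 CPM in egg-tending males 60, 71, 77, 87 and 88. Control males 7, 39, 41, 69 and 74 had 23.5, 21.2, 28.7, 18.9 and 19.3 CPM. Again 4 egg-tending males lay above every control male and male 87 fell within their range, below control male 41. The log2 fold change was 0.69 (SE 0.15, quasi-likelihood test, adjusted p = 0.0362), a 1.62-fold rise at the 0.05 threshold. This call was lost when any of 6 males was left out: egg-tending males 71, 77 and 88 (adjusted p = 0.057, 0.0807 and 0.0802) and control males 39, 69 and 74 (adjusted p = 0.0921, 0.101 and 0.115). The other matched gene of that list, kidins220a, which encodes a scaffold protein that binds neurotrophin receptors, had a log2 fold change of -0.12 (SE 0.07, adjusted p = 0.365, quasi-likelihood test).

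The 9 a.m. control group had the lowest mean bdnf level of the 8 diencephalon groups. It was 22.3 CPM there, 27.6 in control males of 1 p.m. and 27.4 in those of 5 p.m., 41.7 with a nest, 38.9 at early hatching, 30.7 at mid hatching and 31.0 at late hatching. For adcyap1a, too, that group was lowest, at 47.4 CPM, with 51.8 and 49.1 in the later control groups, 62.7 with a nest, 63.2 at early hatching, 56.4 at mid hatching and 55.6 at late hatching. Control groups of different hours were not tested against each other.

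Of 2 genes matched to oxidative phosphorylation, 1 passed 0.05. ndufa7 encodes an accessory subunit of complex I, the first enzyme of the respiratory chain. Its level was 47.7, 43.6, 53.4, 50.4 and 44.1 CPM in egg-tending males 60, 71, 77, 87 and 88, against 34.5, 35.7, 35.1, 30.5 and 29.1 CPM in control males 7, 39, 41, 69 and 74. The groups did not overlap. The log2 fold change was 0.54 (SE 0.10, quasi-likelihood test, adjusted p = 0.0194), and without egg-tending male 77 or control males 69 or 74 the adjusted p was 0.0716, 0.0641 or 0.0795. atp5s, named for a subunit of the mitochondrial ATP synthase, ranged from 35.3 to 52.6 CPM with eggs and from 31.2 to 45.7 CPM in controls, with a log2 fold change of 0.32 (SE 0.10, adjusted p = 0.129, quasi-likelihood test), and its groups overlapped.

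abhd5b lies on linkage group X (here a Roman numeral) at 12769315 to 12772436 (positions as in Ensembl release 75). In mammals its counterpart activates the lipase that begins the breakdown of stored triglycerides. It was at 7.17, 10.1, 9.73, 10.9 and 15.6 CPM in egg-tending males 60, 71, 77, 87 and 88, and at 5.88, 4.99, 5.54, 6.41 and 6.83 CPM in control males 7, 39, 41, 69 and 74. Every egg-tending male lay above every control male, male 60 by little and male 88 by the most. The log2 fold change of 0.85 (SE 0.16, quasi-likelihood test, adjusted p = 0.0194) was a 1.8-fold rise at the 0.05 threshold. Without male 88 it was 0.69 with an adjusted p of 0.0561, and without control male 39 the adjusted p was 0.0647.

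**Figure D2:**
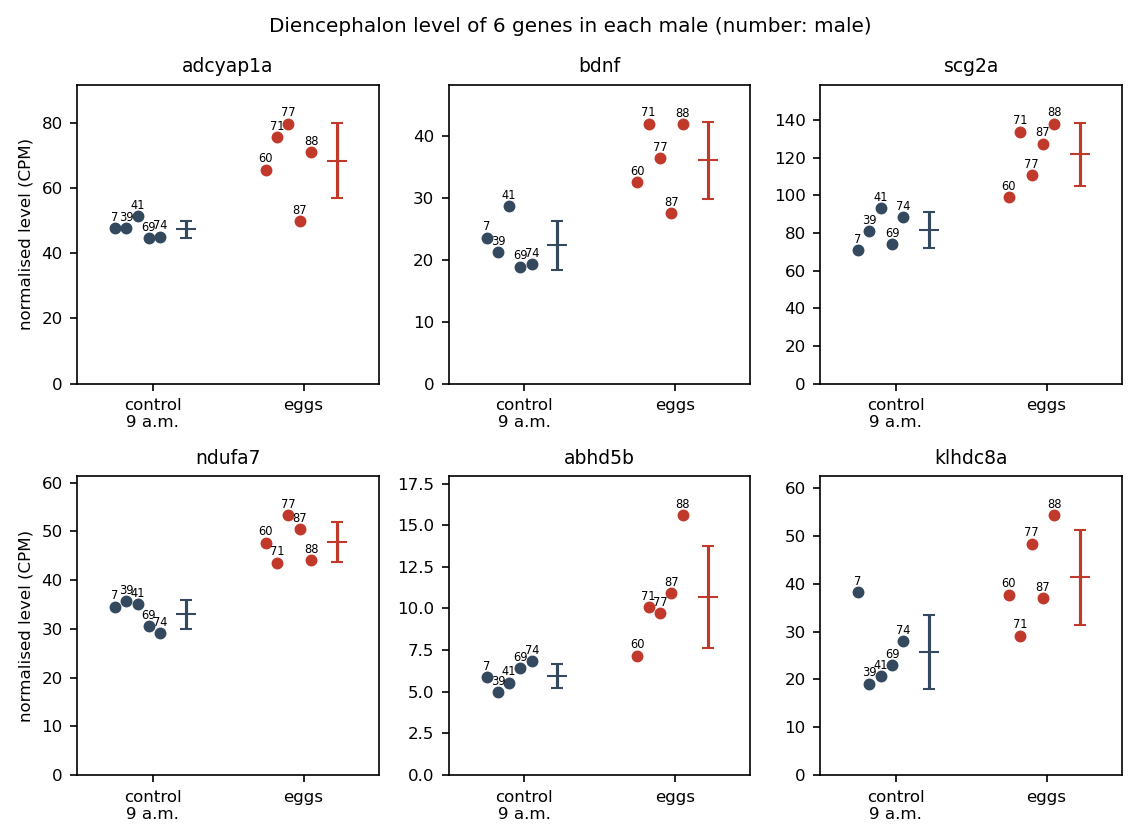
Normalised level (CPM, vertical axis from 0) of adcyap1a, bdnf, scg2a, ndufa7, abhd5b and klhdc8a in each of the 5 control males of 9 a.m. (dark) and the 5 egg-tending males (red). Numbers name the males, and the bars beside the points give the mean and SD. For scg2a, ndufa7 and abhd5b the groups do not overlap, while male 87 sits within the control range for adcyap1a and bdnf, and klhdc8a overlaps through control male 7.

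scg2a encodes secretogranin II, a protein of neuropeptide-storing vesicles and the precursor of the peptide secretoneurin. It is on scaffold_175 at 127469 to 130825. Its level was 98.9, 134, 111, 127 and 138 CPM in egg-tending males 60, 71, 77, 87 and 88, and 70.8, 81.0, 93.3, 74.2 and 88.3 CPM in control males 7, 39, 41, 69 and 74. The groups did not overlap, yet the log2 fold change of 0.58 (SE 0.15) had an adjusted p of 0.0704 in the quasi-likelihood test and passed neither threshold. npy, which encodes neuropeptide Y, a peptide known to promote feeding, was at 8.41, 9.13, 9.20, 9.35 and 13.7 CPM with eggs and at 6.54, 11.6, 6.48, 6.75 and 6.34 CPM in controls. Its groups overlapped only because control male 39 was at 11.6 CPM, and its log2 fold change was 0.40 (SE 0.24, adjusted p = 0.39, quasi-likelihood test).

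Among the 6 genes past 0.01 none had a symbol or a position in the sources used here, so they are described by level alone. ENSGACG00000002100 had the largest rise of the 4 higher genes. Its level was 23.5, 32.7, 35.7, 25.8 and 37.8 CPM in egg-tending males 60, 71, 77, 87 and 88, and 8.83, 11.4, 8.87, 10.0 and 3.79 CPM in control males 7, 39, 41, 69 and 74. Every egg-tending male had more than any control male by a wide margin, a 3.63-fold rise (log2 fold change 1.86, SE 0.30, quasi-likelihood test, adjusted p = 0.00526). In the other diencephalon groups the mean was 16.5 CPM in nest males, 19.95 at early hatching, 14.9 at mid hatching, 13.0 at late hatching and 12.1 and 11.1 in the later control groups. In the telencephalon of the same males the means were 36.0 CPM with eggs and 46.7 CPM in controls, against 31.1 and 8.58 CPM in the diencephalon. The log2 fold change in telencephalon was -0.38 (SE 0.37, adjusted p = 0.737, quasi-likelihood test). The change in diencephalon minus that in telencephalon was 2.22 (SE 0.50) with an adjusted p of 0.2 in the quasi-likelihood fit of both regions. No telencephalon marker was matched, so the part of neighbouring tissue in the diencephalon levels was not tested.

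ENSGACG00000016537 was at 74.2, 75.2, 106, 61.6 and 61.8 CPM in egg-tending males 60, 71, 77, 87 and 88, against 39.4, 46.9, 42.2, 48.9 and 49.0 CPM in control males 7, 39, 41, 69 and 74. The groups did not overlap, and male 77 was highest (log2 fold change 0.74, SE 0.13, quasi-likelihood test, adjusted p = 0.00737). Against the same control males its log2 fold change was 0.78 in nest males (quasi-likelihood test, adjusted p = 0.00378). At early hatching it was 0.46 (adjusted p = 0.646 in that test). This gene, too, had higher means in the telencephalon of the same males, at 542 CPM with eggs and 358 CPM in controls. Of the lower genes, ENSGACG00000020596 was at 10.1, 9.03, 8.63, 7.95 and 10.2 CPM in the same egg-tending males and at 17.5, 18.7, 14.7, 14.3 and 18.5 CPM in the controls. Its groups were tight and well apart (log2 fold change -0.87, SE 0.15, quasi-likelihood test, adjusted p = 0.00737). Against the same control males its log2 fold change was -0.47 in nest males and -0.33 at early hatching. Its telencephalon means were 11.8 CPM with eggs and 17.8 CPM in controls.

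The other gene called lower, ENSGACG00000014008, rested on control males 41 and 69 alone. They had 37.8 and 30.6 CPM, while control males 7, 39 and 74 had 0.763, 0.574 and 0.529 CPM and the egg-tending males had 0.431, 0.515, 0.911, 0.251 and 0.292 CPM. Group means elsewhere in the diencephalon were between 0.429 and 0.68 CPM. The quasi-likelihood fit gave a log2 fold change of -4.84 (SE 0.86, adjusted p = 0.00737), and without control male 41 or 69 it was -4.03 or -4.34 with an adjusted p of 0.0356 or 0.031. Each of these fits kept the other male. Against the same control males it was -4.36 in nest males and -4.34 at early hatching. In telencephalon the gene was not tested, and its level ran from 0 to 0.188 CPM with eggs and from 0 to 38.1 CPM in controls. The remaining 2 genes past 0.01, both higher with eggs and without overlap, had log2 fold changes of 0.44 and 0.40 (SE 0.07 each). Against the same control males these were 0.51 and 0.34 in nest males and 0.15 and 0.24 at early hatching. Over the 30 higher genes at 0.05 the log2 fold changes were between 0.35 and 2.18 with a median of 0.53, and over the 7 lower genes they were between -4.84 and -0.39 with a median of -0.58.

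These counts changed with the model and with the males included. At an adjusted p under 0.05, against 37 genes in the main fit, the 2 groups alone gave 0 and the percentage of non-gene reads as a covariate gave 4. The likelihood ratio test gave 122 there and DESeq2 263. Leaving out 1 male gave between 8 (control male 74) and 110 (male 60) at that threshold. When the fit held the 2 groups alone, or took the percentage of non-gene reads as a covariate, the quasi-likelihood test called 0 genes at 0.01 (2595 and 1879 at an unadjusted 0.05), and adcyap1a, bdnf, ndufa7 and abhd5b had adjusted p of 0.193, 0.188, 0.123 and 0.207 and of 0.134, 0.231, 0.0511 and 0.118, with log2 fold changes of 0.55, 0.71, 0.55 and 0.87 when the 2 groups were alone and of 0.47, 0.60, 0.55 and 0.71 with the covariate, while DESeq2 called 43 higher and 7 lower. Leaving out 1 male gave 4 higher and 0 lower genes (male 60 or 87), 1 and 0 (male 71 or 88), 1 and 1 (control male 7 or 39), 0 and 1 (control male 74) or 0 in either direction (male 77 or control male 41 or 69).

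**Figure D3:**
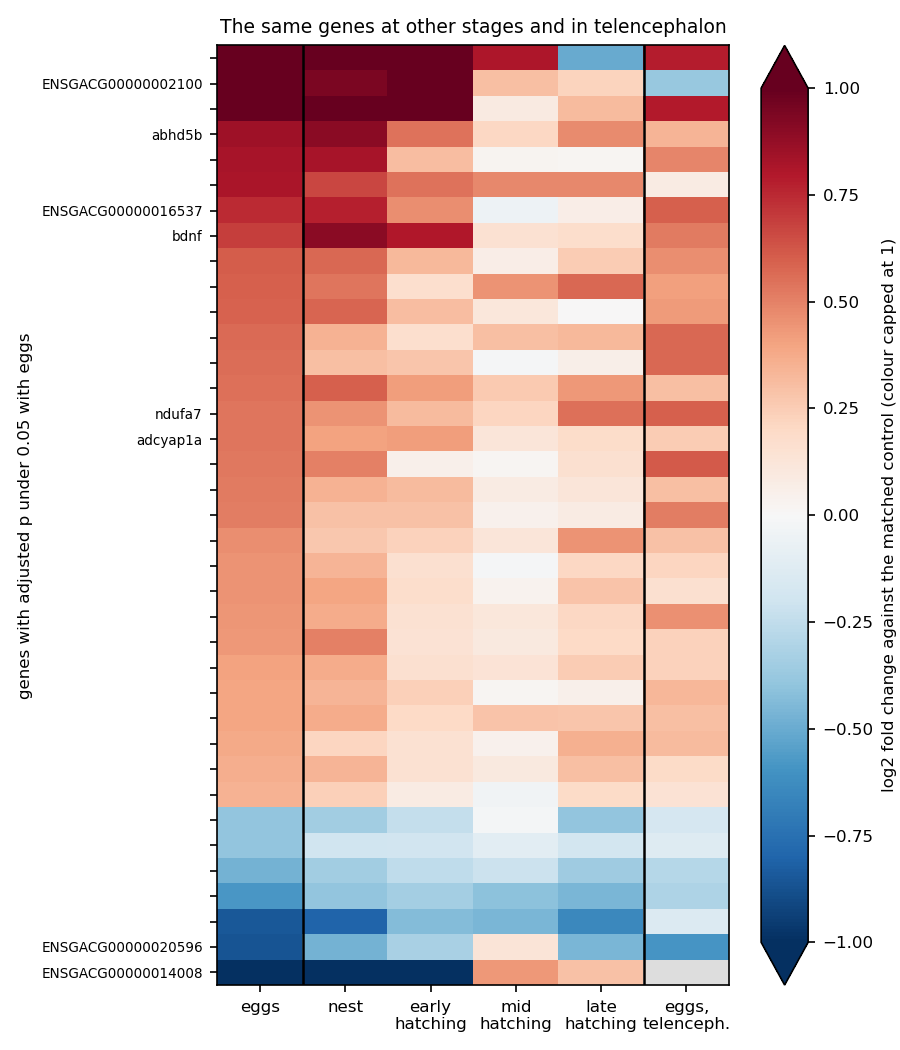
Log2 fold change against the matched control group (colour, capped at 1 in either direction) of the 37 genes with an adjusted p under 0.05 with eggs (rows, ordered by that change), for eggs, the other stages in diencephalon, and eggs in telencephalon (columns). Genes are named where they have a symbol or are described by identifier, and the grey cell marks a gene not tested in telencephalon. Eggs, nest and early hatching share their control males, and the telencephalon column holds the same males as the first.

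The 37 genes were then followed in stages whose males were in neither of the groups compared. Their libraries were, however, part of the fit that called the 37, through its normalization and its estimate of the spread. These stages are therefore no independent check of the 37. At late hatching, against control males of 5 p.m., 29 of the 30 genes higher with eggs had a log2 fold change above 0, against 47.6% of all genes tested, and 9 of the 30 were higher at an adjusted p under 0.05 (4.36% of all genes). Their median there was 0.22 on the log2 scale, against 0.53 with eggs. Of the 7 lower genes, 6 were below 0 at late hatching (52.4% of all genes), and 5 were lower at an adjusted p under 0.05 (7.79% of all genes). At mid hatching, against control males of 1 p.m., 26 of the 30 were above 0 (50.6% of all genes) and 5 of the 7 below 0 (49.4%), with medians of 0.11 and -0.10. At mid hatching the quasi-likelihood test called 0 genes at 0.05 (0%), and 2581 were under an unadjusted 0.05 (13.9%). The letter in place of a lane number was in the titles of 0 of 5 mid and 1 of 5 late libraries and of every control library of those hours. At mid hatching the letter and the group therefore cannot be told apart, and at late hatching only 1 library separates them. The part of the letter in these values was not tested.

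In those later stages ndufa7 had a log2 fold change of 0.55 at late hatching (SE 0.10, adjusted p = 0.00285, quasi-likelihood test) and 0.21 at mid hatching. abhd5b had 0.47 (SE 0.16, adjusted p = 0.0502) and 0.21. adcyap1a had 0.18 (SE 0.10, adjusted p = 0.259) at late hatching and 0.12 at mid hatching, and bdnf 0.18 (SE 0.15, adjusted p = 0.47) and 0.15. Of these 4 genes ndufa7 alone passed 0.01 at late hatching, where 1.11% of all genes were higher at that threshold.

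Nest-holding and early hatching males were compared with the same 5 control males, and their values are given side by side only. With a nest, 10 genes passed an adjusted p of 0.01 (0.0537% of genes, quasi-likelihood test) and 76 passed 0.05 (0.408%). Early hatching gave 0 at 0.05 (0%). For adcyap1a the log2 fold change was 0.40 in nest males, 0.53 in egg-tending males and 0.41 at early hatching. For bdnf it was 0.90, 0.69 and 0.80, for ndufa7 0.45, 0.54 and 0.31, and for abhd5b 0.90, 0.85 and 0.55. The direct comparisons ask what tending eggs adds to holding a nest and how day 4 differs from the start of hatching. Eggs against nest gave 0 genes at an adjusted p under 0.01 (0% of genes, quasi-likelihood test), with 944 genes at an unadjusted p under 0.05 (5.07%) and 0 by DESeq2. Eggs against early hatching gave 0 (0% of genes), with 1482 at an unadjusted p under 0.05 (7.96%) and 1 higher gene by DESeq2. bdnf differed between eggs and nest by -0.21 (SE 0.15) and adcyap1a by 0.13 (SE 0.10) on the log2 scale (adjusted p = 0.975 and 0.977), which does not show that the stages were alike.

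In the telencephalon of the same males, 0 genes were higher and 1 lower with eggs at an adjusted p under 0.01 (0.00544% of 18397 genes), where 2097 genes had an unadjusted p under 0.05 (11.4%), and 7 were higher and 3 lower at 0.05 (0.0544%, 0.038% higher and 0.0163% lower). The log2 fold changes there were 0.25 (SE 0.16) for adcyap1a, 0.52 (SE 0.13) for bdnf, 0.60 (SE 0.13) for ndufa7 and 0.34 (SE 0.20) for abhd5b, with adjusted p = 0.562, 0.112, 0.0591 and 0.523 in the quasi-likelihood test. The change in diencephalon minus that in telencephalon was taken from a fit with no term for the male. It was 0.28 (SE 0.19), 0.17 (SE 0.20), -0.06 (SE 0.17) and 0.51 (SE 0.25) for these genes, and none of the differences passed the test. Over all genes that difference passed 0.01 for 0 of 18958 genes (0%), with 648 at an unadjusted p under 0.05 (3.42%) and 1 at 0.05 (0.00527%).

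The study's diencephalon orthogroup genes, which belong to gene families that the study also found among changed genes of the mouse hypothalamus across pregnancy and after birth, were chosen by the study on these same samples, so their directions are not independent evidence. All 14 were tested. None passed 0.01 and 2 passed 0.05, adcyap1a and bdnf (0.0322% and 0.199% of all genes). An unadjusted p under 0.05 was reached by 12, 5 higher and 7 lower (8.42% and 8.89% of all genes). Their median log2 fold change was -0.34 against -0.00 over all genes. By DESeq2, 3 passed 0.01, as did 50 of all 18609 genes. klhdc8a, which encodes a kelch domain protein, was at 37.8, 29.2, 48.4, 37.1 and 54.4 CPM in egg-tending males 60, 71, 77, 87 and 88 and at 38.4, 19.1, 20.6, 23.03 and 28.0 CPM in control males 7, 39, 41, 69 and 74. Only control male 7 lay among the egg-tending males (log2 fold change 0.68, SE 0.16, quasi-likelihood test, adjusted p = 0.0574). sall3a, a zinc finger transcription factor, was at 53.3, 64.7, 56.7, 78.1 and 45.7 CPM with eggs and at 81.4, 122, 73.3, 78.5 and 102 CPM in controls, and male 87 was again the egg-tending male inside the control range (log2 fold change -0.62, SE 0.23, adjusted p = 0.167).

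The other named orthogroup genes had smaller or similar differences, none past 0.05. Those below 0 were prkca, a protein kinase C (-0.47), anxa11b and cpne3, which encode calcium-dependent membrane-binding proteins (-0.41 each), sox19a, a transcription factor of neural precursors (-0.31), and cnih2, an auxiliary subunit of AMPA glutamate receptors (-0.21). cpne3 is 1 of several copies, and reads that fit more than 1 of them would be left out of the counts. MYH3, a myosin heavy chain, had 0.41 (SE 0.19, adjusted p = 0.264). The 4 genes without a symbol had -0.77, -0.58, -0.36 and 0.43, with adjusted p between 0.109 and 0.171 in the quasi-likelihood test.

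**Figure D4:**
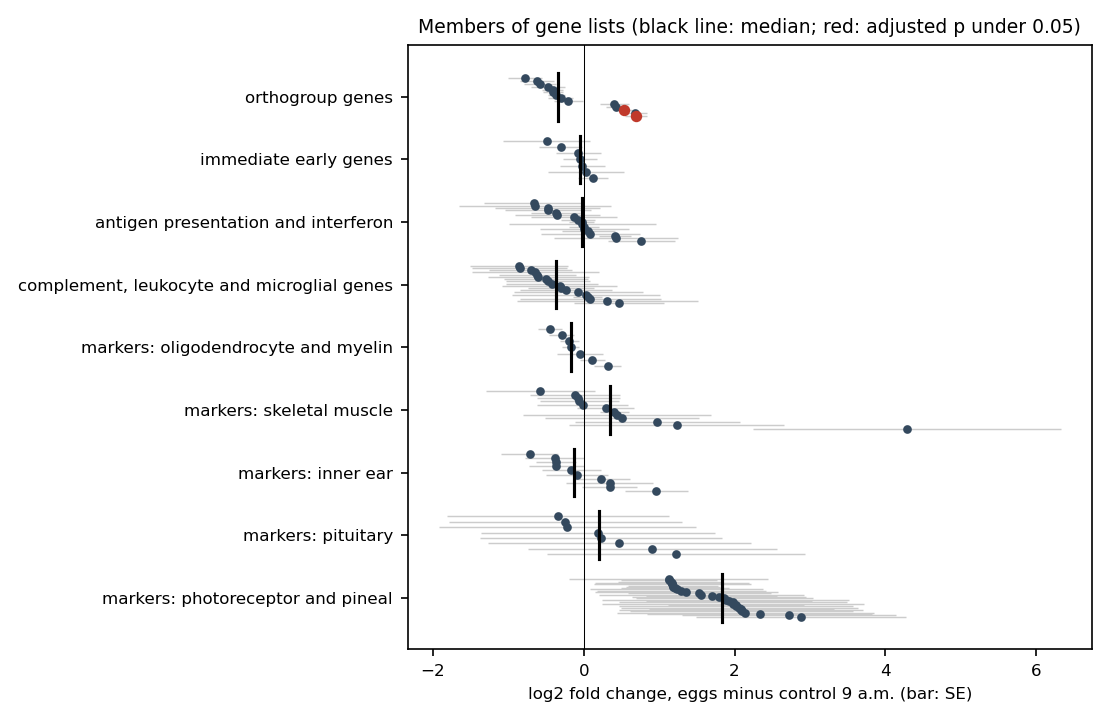
Log2 fold change (eggs minus control 9 a.m., horizontal axis) of each tested member of 9 gene lists, with its SE (grey bars). Black lines mark the list medians and red points members with an adjusted p under 0.05. The only red points are adcyap1a and bdnf, and all 30 photoreceptor and pineal markers lie above 0 with wide bars.

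No immune gene with a symbol passed the test. Of 17 genes of antigen presentation and interferon response, 0 had an adjusted p under 0.05 and 0 an unadjusted p under 0.05 (17.3% of all genes), with a median log2 fold change of -0.03, 7 above 0 and 10 below. The most abundant were irf1b and irf8, transcription factors of the interferon response (-0.48 each, SE 0.57 and 0.70), and tap1, a peptide transporter for antigen loading (-0.07, SE 0.23). Among the 17 were several copies of psmb9a and TAPBP, and psmb10 and psmb11 are also named as copies. Reads that fit more than 1 copy would be left out of the counts. Of 18 complement, leukocyte and microglial genes, 0 passed either test, 5 were above 0 (49.4% of all genes) and 13 below, with a median of -0.37. Their summed level ran from 304 to 1532 CPM with eggs and from 662 to 1396 CPM in controls. lcp1, an actin-bundling protein of leukocytes, had -0.70 (SE 0.55), C4B, a complement component, -0.23 (SE 0.61), lgmn, a lysosomal protease, 0.05 (SE 0.19), and c1qc, a chain of complement C1q, -0.85 (SE 0.63). DESeq2 called 0 genes of either list at 0.05. With the percentage of non-gene reads as a covariate the median of the second list was -0.03, and without egg-tending male 71, 87 or 88 or control male 39 it was -0.24, -0.99, -0.14 or -0.19.

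Immediate early genes, which neurons switch on within minutes of activity, did not pass the test either. Of 7 tested, 0 had an adjusted or unadjusted p under 0.05 in the quasi-likelihood test (0.199% and 17.3% of all genes) and 0 passed 0.05 by DESeq2, and the median was -0.05. dusp5, a phosphatase of the MAP kinase pathway, had 0.12 (SE 0.19), npas4a, an activity-dependent transcription factor, -0.31 (SE 0.28), and fos -0.02 (SE 0.30).

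Several lists had too few matched genes to be described as groups. The only care peptide or receptor of 35 listed symbols was prl, treated with the pituitary markers. CCRN4L, which encodes nocturnin, a rhythmically expressed deadenylase, had 0.28 (SE 0.12, adjusted p = 0.231). The glutamate receptor genes gria3a and shisa9b had -0.09 (SE 0.13) and -0.17 (SE 0.20), and gchfr, a regulator of tetrahydrobiopterin synthesis, -0.08 (SE 0.27). Of the steroid enzymes, hsd3b7 had 0.29 (SE 0.27) and hsd17b3 0.05 (SE 0.19). The ribosomal protein genes rps19 and rps25 had 0.11 (SE 0.11) and 0.04 (SE 0.13). None of these passed 0.05 in the quasi-likelihood test. CCRN4L is 1 of 2 copies.

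Of all 652 genes with a symbol, 13 did not overlap between the groups (9 higher and 4 lower), a smaller share than the 2.82% of all genes, and 89 had an unadjusted p under 0.05 (13.7%, against 17.3% of all genes), so the genes with a symbol did not stand out by either count. By an adjusted p under 0.05 there were 4 of the 652, a larger share than the 0.199% of all genes. Of the 13 without overlap, besides scg2a, ndufa7, abhd5b and sox2, the higher ones were taf13, gadd45ab, gpr1, LMO1 and myo1ha, and the lower ones FRS3, FKBP14, CCDC81 and NCOA3, named here after their values were seen. taf13, a subunit of the general transcription factor TFIID, was at 89.9, 88.3, 112, 106 and 95.7 CPM in egg-tending males 60, 71, 77, 87 and 88 and at 78.0, 65.2, 78.2, 68.3 and 71.2 CPM in control males 7, 39, 41, 69 and 74 (log2 fold change 0.45, SE 0.12, quasi-likelihood test, adjusted p = 0.074). NCOA3, a coactivator of nuclear receptors, had -0.30, and FRS3, an adaptor of fibroblast growth factor receptors, -0.41. LMO1, FKBP14 and NCOA3 are each 1 of 2 copies, and reads that fit both copies would be left out of the counts. None of these 9 genes passed 0.05.

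Myelin and glial genes were measured as markers of cell makeup. Of 7 oligodendrocyte and myelin genes none passed 0.05, and the summed level ran from 547 to 849 CPM with eggs and from 582 to 763 CPM in controls. mag, the myelin-associated glycoprotein, was at 107, 96.3, 58.6, 99.2 and 64.0 CPM with eggs and at 91.8, 125, 107, 152 and 103 CPM in controls (log2 fold change -0.44, SE 0.16, quasi-likelihood test, adjusted p = 0.163), while mbpb, a myelin basic protein gene, had 0.32 (SE 0.17) and mpz, myelin protein zero, -0.29 (SE 0.16). sox2, a transcription factor of radial glia, was at 75.7, 81.4, 83.1, 79.9 and 71.4 CPM with eggs and at 69.8, 70.21, 65.7, 65.3 and 64.3 CPM in controls. Every egg-tending male lay above every control male, by a small margin, and the log2 fold change of 0.22 (SE 0.09) did not pass the quasi-likelihood test (adjusted p = 0.185). The summed level of the radial glia list, which sox2 makes up almost wholly, was 79.5 ± 5.57 (SD, n = 5) CPM with eggs and 67.5 ± 2.92 (SD, n = 5) CPM in controls (exact permutation, two-sided p = 0.00794, which is the lowest value 5 against 5 can give, and 0.111 after adjustment over 14 measures). slc1a2a, a glial glutamate transporter gene and the other gene of that list, was below 1 CPM in every male but male 71.

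Pituitary hormone genes varied by orders of magnitude between males of 1 group. The 8 pituitary markers summed to 43.1, 2.39, 1471, 3778 and 23.8 CPM in egg-tending males 60, 71, 77, 87 and 88 and to 2306, 19.6, 94.4, 661 and 906 CPM in control males 7, 39, 41, 69 and 74. Males 87, 7 and 77 were high and males 71, 39 and 88 low, with no separation of the groups (two-sided exact permutation test, p = 0.825, 0.873 after adjustment over 14 measures). prl, which encodes prolactin, a hormone linked to paternal fanning in fish, was at 14.3, 0.0936, 257, 574 and 12.2 CPM with eggs and at 434, 1.63, 17.7, 62.2 and 219 CPM in controls. Its log2 fold change of 0.22 had an SE of 1.61, so a change of several fold in either direction would not have been detectable. pomca, the precursor of corticotropin and melanotropin, which hypothalamic neurons also make, was at 5.06, 2.06, 482, 1410 and 3.04 CPM with eggs and at 463, 4.28, 13.5, 141 and 194 CPM in controls, following the same males. cga, the shared subunit of the glycoprotein hormones, had -0.22 (SE 1.71). gh1, lhb and tshb, for growth hormone, luteinizing hormone and thyrotropin, were at 0 CPM in male 71. No pituitary gene passed either test. Male 87, which lay inside the control range for adcyap1a, bdnf and sall3a, had the highest pituitary sum, and the part of pituitary RNA in those values was not tested in that male. With pituitary and photoreceptor scores as covariates 4 genes were higher and 1 lower at 0.01, and adcyap1a kept a log2 fold change of 0.51 (adjusted p = 0.0317) and bdnf 0.66 (adjusted p = 0.0559).

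The photoreceptor and pineal markers were carried by male 71. Their sum was 34.3, 902, 38.2, 21.4 and 98.8 CPM in egg-tending males 60, 71, 77, 87 and 88 and 186, 28.5, 36.98, 106 and 11.6 CPM in control males 7, 39, 41, 69 and 74 (two-sided exact permutation test, p = 0.69, 0.806 after adjustment over 14 measures). All 30 tested markers had a log2 fold change above 0, with a median of 1.83, but none passed 0.05, and without male 71 the median over the 26 still tested was -0.95 with 3 above 0. gnat1 and gnat2, the rod and cone transducins, had 1.36 (SE 1.21) and 1.69 (SE 0.87), pde6g, a phosphodiesterase subunit, 1.18 (SE 0.62), and arr3a, a cone arrestin, 1.56 (SE 1.36). Without the 4 libraries with the most photoreceptor RNA (males 71, 88, 7 and 69), an alternative chosen after seeing the data, 0 genes were called at 0.01 and 2642 at an unadjusted 0.05, and adcyap1a and bdnf had log2 fold changes of 0.46 and 0.50 (adjusted p = 0.159 and 0.237, quasi-likelihood test, with 3 males a group).

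The remaining marker lists were those of muscle, ear, vessels and the midbrain and hindbrain. The 12 muscle markers summed to between 23.6 and 44.8 CPM with eggs and between 26.6 and 29.6 CPM in controls, with MYH3, tpm2 and atp2a1, a myosin, a tropomyosin and a calcium pump, the most abundant (0.41, 0.29 and -0.12). The muscle sums averaged 34.4 and 27.5 CPM (two-sided exact permutation test, p = 0.0873, 0.306 after adjustment over 14 measures). At an unadjusted p under 0.05, 2 of the 12 were higher (8.42% of all genes) and 0 lower. The largest change in the list was that of mylpfb, named after its value was seen, at 4.28 (SE 2.04). The list median was 0.35. Without egg-tending male 60, which had the highest muscle sum, it was -0.03, with 4 of the 12 above 0. Leaving out any other male of the 2 groups gave a median between 0.23 and 0.45. The inner ear list summed to between 18.2 and 29.2 CPM and between 19.7 and 30.0 CPM, and of its 10 tested genes 4 were above 0 and 6 below, with a median of -0.13. Its most abundant genes, COL9A1, OTOGL and col2a1a, had -0.37, -0.37 and -0.39, and its only gene under an unadjusted 0.05, matn4, named after its value was seen, had 0.96 (SE 0.42). The midbrain and hindbrain list, with 2 of 26 symbols matched, summed to between 30.5 and 41.7 CPM with eggs and between 33.9 and 47.7 CPM in controls. The list of vessels, meninges and choroid plexus, with 2 of 25 matched, summed to between 12.7 and 25.0 CPM and between 6.43 and 41.4 CPM. The midbrain and hindbrain markers pax7b and pax2b had -0.17 and -0.48, and col1a2, a collagen of vessels and meninges, -0.37. None of these passed 0.05, and in each list no matched gene was at 0 in all 10 males.

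**Figure D5:**
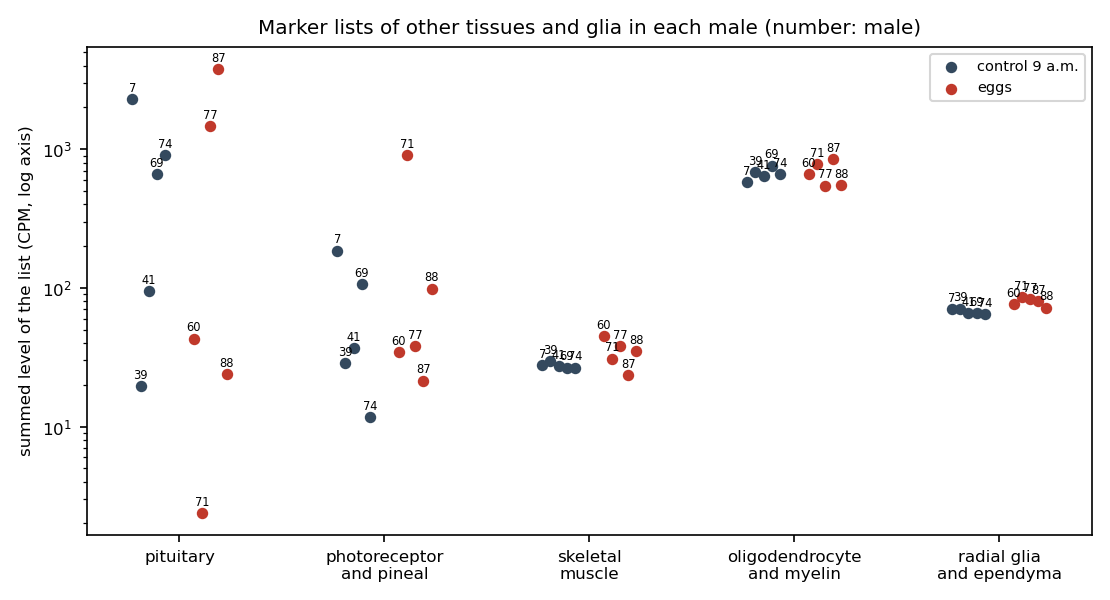
Summed level (CPM, log axis) of the marker lists of pituitary, photoreceptors and pineal, skeletal muscle, oligodendrocytes and myelin, and radial glia in each control male of 9 a.m. (dark) and egg-tending male (red), with numbers naming the males. Pituitary sums run from 2.39 to 3778 CPM, male 71 stands alone at 902 CPM for photoreceptor genes.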

How the data were processed

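The authors isolated total RNA from dissected, frozen tissue, made stranded mRNA libraries and sequenced single reads. Per the labels and methods, CASAVA 1.8.2, TopHat2 2.0.8 and HTSeq 0.6.1 were used with the genome and gene annotation of Ensembl release 75, and the authors deposited whole-number counts per gene without normalization, with HTSeq's totals of unassigned, ambiguous and multiply aligned reads at the end. The methods state default settings in general and name no strand option for the counting itself, so values of overlapping genes and antisense partners are treated as uncertain. Reads that fit several places were left out of the gene counts. Gene totals of the 10 libraries, from 16890543 to 22782480, limit precision mainly for genes near 0.5 CPM.

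edgeR 4.0.16 on R 4.3.3 normalised the counts by TMM and fitted all 8 diencephalon groups together. The quasi-likelihood test was used with Benjamini-Hochberg adjustment, a threshold of 0.01 and a looser one of 0.05. That test reports no SE. The SE given with a log2 fold change is its absolute value divided by the square root of the test's F statistic. CPM values are normalised by the TMM factors. Region differences were tested in 1 fit of all 79 libraries with no term for the male, so their SEs ignore the pairing of regions. A fit with the male as a replicate block was an alternative. Library measures were compared by exact permutation. Within a region each library is labelled as a separate male, and the diencephalon and telencephalon libraries of 1 male share its number.

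The gene lists, their genes and the tests were chosen with earlier results of these data known, while the 10 libraries were chosen by their labels alone. Genes named are those past 0.01, up to 10 a direction past 0.05 with the largest change, at least 1 CPM and no overlap, all tested care and orthogroup genes, and of the other lists members past 0.05 and up to 3 of the highest level. Of genes without a symbol, 2 a direction are printed by identifier, and 1 gene that the rule names is not reported here. Symbols and positions came from the study's supplementary tables (830 of 22456 genes) and no values did. Alternatives were RLE normalization, no filter, the likelihood ratio test, DESeq2 1.42.0, the 2 groups alone, covariates and leaving out each male. On simulated counts for this comparison (18609 genes), 84 of 100 genes changed by 1 on the log2 scale and 19 of 100 changed by 0.5 were recovered at 0.01, with 3 false calls. The changed genes were drawn from those with a mean of at least 1 CPM. No effect of lane or index and no variation shared between genes was simulated. These rates therefore do not give the power of the real comparison over all genes. Python 3.11.15, scipy 1.17.1 and matplotlib 3.10.9 made the tables and figures.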

Additional observations from a re-analysis of the deposited data

Results flagged for a closer look

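In 3 of 52 groups of 5 males looked at (levels of genes given by male and marker sums), 1 male lay far from the other 4, and chance alone marks about 1 group in 20. The summed level of photoreceptor and pineal markers was 902 CPM in egg-tending male 71, and the other 4 egg-tending males had at most 98.8 CPM. npy was at 13.7 CPM in egg-tending male 88 and at 11.6 CPM in control male 39, each well above the other 4 males of its group.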

How the results depend on the processing

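Against 4 higher and 2 lower genes at an adjusted p under 0.01, the threshold of 0.05 gave 30 and 7, the likelihood ratio test 22 and 4, DESeq2 43 and 7, and pituitary and photoreceptor scores as covariates 4 and 1. The 2 groups alone, the percentage of non-gene reads as a covariate, and leaving out the 4 libraries richest in photoreceptor RNA (chosen after seeing the data) gave 0 and 0. Leaving out 1 male gave 0 to 4 and 0 to 1. DESeq2 gave 1 higher gene for eggs against early hatching. Of the 6 genes, 6 were also called under RLE normalization, without a filter, by the likelihood ratio test and by DESeq2. No paired analysis was possible because egg-tending and control males share no male number. The difference between regions, where males pair the libraries, had 0 calls in either direction at 0.01 with and without the male as a replicate block, and 1 higher at 0.05 without it.

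Among 72 genes followed by log2 fold change, 55 of 1295 values changed sign, 0 of them in genes with an adjusted p under 0.05, and the cause was not tested. Genes under 0.05 were picked for a large change relative to its error in these same males, so that 0 is no measure of their stability. Without the 4 libraries the values that changed sign were slc1a2a -0.029, gnat1 -0.16, col2a1a 0.16, tap1 0.038, hsd17b3 -0.20, tshb 1.79 and cga 2.16. With the percentage of non-gene reads they were irf8 0.072, rps25 -0.0069, hsd17b3 -0.0061 and fos 0.17, and with the scores gnat1 -0.38, hsd17b3 -0.010 and gh1 -0.010. Leaving out 1 male gave gnat1 -1.04 to 2.32, gnat2 -0.59 to 2.4, arr3a -0.81 to 2.81, slc1a2a -0.15 to 1.82, pomca -0.40 to 2.11, prl -1.05 to 1.19, gh1 -1.35 to 1.07, tshb -1.51 to 0.72, cga -1.27 to 0.78, lhb -1.42 to 1.6, col2a1a -0.58 to 0.43, atp2a1 -0.28 to 0.0042, dusp5 -0.015 to 0.25, fos -0.18 to 0.11, rps25 -0.058 to 0.10, C4B -0.87 to 0.011, tap1 -0.17 to 0.058, lgmn -0.057 to 0.14, gchfr -0.17 to 0.011 and hsd17b3 -0.11 to 0.16.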
